A study of Mus musculus with 4 samples.

Results

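mmu-miR-146a-5p, mmu-miR-146b-5p and mmu-miR-155-5p are 3 mature miRNAs that inflammatory signalling through NF-kappa-B induces in immune and epithelial cells. They were chosen by name, and all 3 were found among the 795 known mature miRNAs measured in the exosomes of 2 mouse colon carcinoma lines, C26 and MC38. C26 tumours are widely used to induce cachexia, and the title of the series asks how the exosomal miRNAs of C26 and MC38 differ. Both lines were grown in medium freed of exosomes, and exosomes were taken from the conditioned medium either with ExoQuick-TC, a reagent that precipitates vesicles, or with a Wako capture kit sold for an exosome ELISA. Each of the 4 combinations of line and kit gave 1 library, named here by both (such as C26 Wako), and no other treatment is given for any of them. Whether the libraries stem from separate cultures is not stated, so p-values reflect the spread among these libraries alone, which may be technical.

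A miRNA guides Argonaute proteins to messenger RNAs that pair with its seed, the bases from position 2 to position 8, and so lowers the output of those messages. miR-146a and miR-146b form a negative feedback loop: NF-kappa-B raises miR-146a after Toll-like receptor or cytokine signals, and both miRNAs repress the adaptor messages Irak1 and Traf6, which damps the signal. miR-155, processed from the noncoding transcript Mir155hg (also known as Bic), is induced by the same signals and mostly sustains inflammation, through targets such as Socs1 and Inpp5d. In blood and tissues these miRNAs are best known from myeloid cells and lymphocytes, although carcinoma cells also make them.

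The mature sequences are shown here, from RefSeq on GRCm38.p6 and 5′ to 3′, because the seeds decide which members share targets. Capitals mark the seed:
mmu-miR-146a-5p: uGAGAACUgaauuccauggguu
mmu-miR-146b-5p: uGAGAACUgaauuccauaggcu
mmu-miR-155-5p: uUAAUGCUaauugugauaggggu

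miR-146a-5p and miR-146b-5p have the same seed, GAGAACU, and no other mature mouse miRNA in the RefSeq table has it. miR-155-5p is the single entry with UAAUGCU. Names of 650 of the 795 miRNAs were found in that table. Over their 22 bases, miR-146a-5p and miR-146b-5p are the same at 20 positions and differ at 2, which are capitals in the next lines. Counted from 1 at the 5′ end of miR-146a-5p, the changes to miR-146b-5p are G18A and U21C.
miR-146a-5p: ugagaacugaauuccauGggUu
miR-146b-5p: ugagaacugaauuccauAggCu

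A read cut short before position 18 could come from either, and the sources used here do not say how the authors assigned such reads. The seed-sharing sum of miR-146a-5p and miR-146b-5p is therefore given beside the single values. A read given to the wrong one of the pair leaves that sum unchanged, whereas a read listed under both would count 2 times in it and a dropped read not at all. The genes are unlinked. The hairpin Mir146 lies on chromosome 11 (43374397 to 43374461, minus strand, GRCm38), where GENCODE M21 has no other gene. Mir146b lies on chromosome 19 (46342762 to 46342870, plus strand), inside Mfsd13a and in none of its exons, hence in an intron. Mir155 lies on chromosome 16 (84714140 to 84714204, plus strand), in an exon of the noncoding RNA gene Mir155hg. Rows for the opposite (3p) strands of these hairpins were not analysed here.

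Values are in RPM, reads scaled to 1 common library total. With ExoQuick the library total was 1356801 reads for C26 and 340643 for MC38, and with Wako it was 33692 and 3867. A single read therefore stood for 0.737 and 2.94 RPM with ExoQuick and for 29.7 and 259 RPM with Wako. The limit that a count of 0 allows, 3 reads, was 2.21 and 8.81 RPM with ExoQuick and 89.0 and 776 RPM with Wako. Both Wako libraries were shallower than the ExoQuick library of their line, hence depth and kit cannot be told apart. Exact 95% intervals (Clopper-Pearson) follow the values. Intervals and floors cover counting error only, because these reads carry no molecular identifiers and several may stem from 1 molecule.

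miR-146a-5p, the main feedback repressor of the 3, was abundant in MC38 exosomes and scarce in C26 exosomes under both kits. With ExoQuick it stood at 33.2 RPM in C26 (45 reads, interval 24.2 to 44.4) and at 22983 RPM in MC38 (7829 reads, 22482 to 23492). With Wako it stood at 178 RPM in C26 (6 reads, 65.4 to 388) and at 2586 RPM in MC38 (10 reads, 1241 to 4751). Both MC38 values lay above both C26 values. In MC38 ExoQuick it was the 8th most abundant miRNA and made up 2.30% of the library, against the 219th place in C26 ExoQuick. With Wako it was 48th in MC38 and 198th in C26.

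The level of miR-146a-5p was 693 times higher in MC38 than in C26 under ExoQuick (exact 95% interval 517 to 951) and 14.5 times higher under Wako (4.78 to 48.6). Both ratios were above 1, and their intervals did not overlap. With the listed reads other than miR-130a-3p as the denominator, the ExoQuick ratio became 1148, outside that counting interval. On the scale of log2(RPM + 1), the difference under ExoQuick was the largest in favour of MC38 among the 390 miRNAs tested. The difference under Wako took the 21st place in that order, and the difference fitted over both kits the 3rd. A test of the difference between the kits across samples was not possible, since a term for it would leave no degrees of freedom.

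In a limma fit with line and kit as additive terms on log2(RPM + 1), the line difference of miR-146a-5p was −6.62 for C26 minus MC38 (SE 1.03, adjusted p = 1.36e-07, Benjamini-Hochberg over 390 miRNAs), the lowest p of the fit. It was the single member of the 3 that passed adjusted p under 0.05, called from here on, against a background of 13 of 390 miRNAs called in either direction (3.33%) and 2 of 390 called higher in MC38 (0.513%). The fit has 1 residual degree of freedom, and its SE comes from the trend of spread with abundance over all miRNAs, not from the gap of miR-146a-5p between the kits. The direction held under all 19 alternatives, but the call was lost with median-ratio scaling (adjusted p = 0.278), without a trend (0.338), without the kit term (0.556) and in every fit without 1 library (0.240 to 0.674), none of which could keep the kit term. edgeR (adjusted p = 0.00217) and DESeq2 (adjusted p = 2.69e-06) on the recovered whole reads called it.

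**Figure D1:**
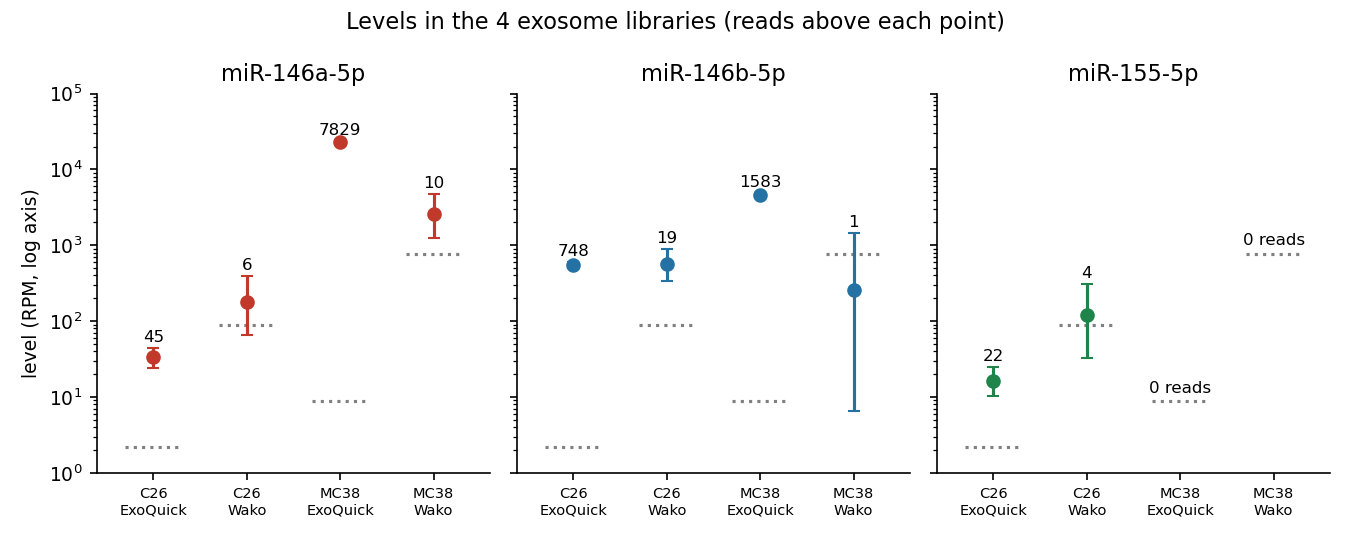
Levels of miR-146a-5p, miR-146b-5p and miR-155-5p (RPM, log axis) in the 4 libraries; points are single libraries, bars are exact 95% intervals, numbers are reads, and dotted lines mark the 3-read floor of each library. miR-146a-5p is higher in both MC38 libraries, miR-146b-5p is high in MC38 ExoQuick alone, and miR-155-5p has reads in the C26 libraries alone, with the MC38 Wako floor (776 RPM) above both C26 levels.

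miR-146b-5p, which shares its seed with miR-146a-5p but comes from another chromosome, differed between the lines under ExoQuick and not detectably under Wako. Its level with ExoQuick was 551 RPM in C26 (748 reads, interval 513 to 592) and 4647 RPM in MC38 (1583 reads, 4421 to 4881). Its level with Wako was 564 RPM in C26 (19 reads, 340 to 881) and 259 RPM in MC38 (1 read, 6.55 to 1440). The C26 libraries were alike and the lines overlapped, because MC38 Wako had the lowest value and MC38 ExoQuick the highest. At the level of MC38 ExoQuick, the MC38 Wako library would have held 18.0 reads of it, and at the level of C26 ExoQuick 2.13.

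The level of miR-146b-5p was 8.43 times higher in MC38 than in C26 under ExoQuick (exact 95% interval 7.72 to 9.21). With the listed reads other than miR-130a-3p as the denominator, that ratio became 13.97. Under Wako the ratio of MC38 to C26 was 0.459, with an interval of 0.0110 to 2.88 that holds 1, so no difference was detectable at that depth. In limma over both kits the line difference was −0.98 (SE 1.03, adjusted p = 0.724), and miR-146b-5p was not called. No alternative that was run called it, and the sign turned without MC38 ExoQuick (1.11).

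Within the miR-146 pair, the leading member differed between the lines under both kits. This share does not depend on the library total or on scaling, though it does depend on how reads too short to tell the pair apart were assigned. miR-146a-5p made up 5.67% of the pair's 793 reads in C26 ExoQuick (exact 95% interval 4.17 to 7.52) and 24.0% of 25 reads in C26 Wako (9.36 to 45.1). In MC38 it made up 83.2% of 9412 reads with ExoQuick (82.4 to 83.9) and 90.9% of 11 reads with Wako (58.7 to 99.8). Both C26 intervals lay below 50% and both MC38 intervals above it. miR-146b-5p thus had 16.6 reads for each read of miR-146a-5p in C26 ExoQuick, and 0.202 in MC38 ExoQuick.

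**Figure D2:**
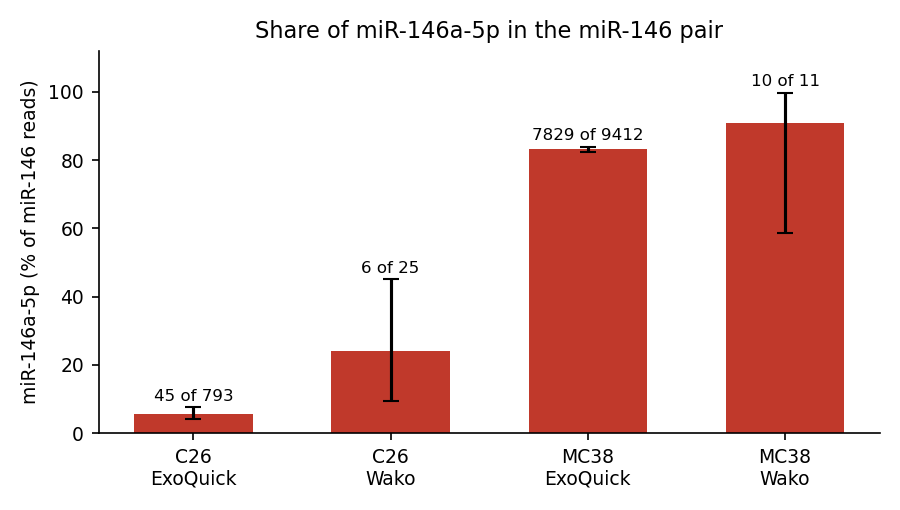
Share of miR-146a-5p in the reads of miR-146a-5p and miR-146b-5p (percent, bars from 0) in each library, with exact 95% intervals and the reads behind each bar. The C26 libraries stand at 5.67% and 24.0%, and the MC38 libraries at 83.2% and 90.9%.

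Summed, the reads with the miR-146 seed came to 584 RPM in C26 and 27630 RPM in MC38 with ExoQuick, and to 742 and 2845 RPM with Wako. The MC38 sum was 47.3 times that of C26 under ExoQuick (exact 95% interval 44.0 to 50.9) and 3.83 times under Wako (1.70 to 8.08). Both intervals lay above 1. Fitted as 1 feature in limma, an alternative chosen after seeing the data, the sum had a line difference of −3.75 (SE 0.86, adjusted p = 0.00152).

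The C26 ExoQuick reads of miR-146a-5p amount to 0.575% of those of MC38 ExoQuick, those of C26 Wako to 0.0766% and those of MC38 Wako to 0.128%. Whether any of these few reads were carried over between libraries was not tested. miR-146b-5p in C26 ExoQuick does not rest on so few, with 748 reads against 1583 in MC38 ExoQuick.

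miR-155-5p, the member that promotes inflammation, was scarce wherever it had reads and had none in MC38. It stood at 16.2 RPM in C26 ExoQuick (22 reads, interval 10.2 to 24.5) and at 119 in C26 Wako (4 reads, 32.3 to 304), and neither MC38 library held a read (0 and 0). It took the 263rd and 219th places in the C26 libraries. Its reads thus lay in the line with less miR-146a-5p. A direction cannot be read from Wako, where MC38 was too shallow to show one.

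Under ExoQuick, the C26 value of miR-155-5p was 1.84 times the 3-read floor of MC38 ExoQuick. It was 1.11 times that floor with the listed reads other than miR-130a-3p as the denominator. Neither figure is a lower bound of the line ratio, since the counting error of C26 is left out. The intervals of C26 (10.2 to 24.5 RPM) and MC38 (0 to 10.8 RPM) overlapped slightly. At the C26 ExoQuick level, MC38 ExoQuick would have held 5.52 reads of miR-155-5p. Under Wako no difference was detectable, since both C26 levels were below the MC38 Wako floor of 776 RPM and the C26 Wako level would have given 0.459 reads there. miR-155-5p met the filter on the mean through C26 alone, so the sign of its fitted line difference was fixed by that, and its size depends on the pseudocount (log2 5.50, SE 4.02, adjusted p = 0.711 in limma). It was not called by limma, edgeR (adjusted p = 0.482) or DESeq2 (adjusted p = 0.996) over the 4 libraries. Without C26 ExoQuick it passed in limma (adjusted p = 0.00812). There C26 was 1 library with 4 reads, and the 2 MC38 values of 0 gave the only spread of its own (SE 0.12), so this p says nothing of the spread within C26.

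The lines did not overlap for miR-146a-5p, with MC38 higher, as for 25 of the 390 miRNAs tested (6.41%). They did not overlap for miR-155-5p either, with C26 higher, as for 123 of 390 (31.5%). The second share holds many miRNAs with 0 reads in the shallow MC38 Wako library, so it says little about miR-155-5p. The median line difference over all 390 was 1.85 on the log2 scale, toward C26, against −6.62, −0.98 and 5.50 for miR-146a-5p, miR-146b-5p and miR-155-5p. This median depended on the scaling: it was 1.18 with TMM, 0.87 with median-ratio scaling, 0.63 with quantile normalization and 0.34 with edgeR, and it turned toward MC38 with DESeq2 (−0.21). For the kits it was 0.44, and it turned toward ExoQuick with TMM (−1.16), median-ratio scaling (−0.97) and quantile normalization (−0.75).

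The second comparison, Wako against ExoQuick within a line, gave opposite directions for miR-146a-5p. In C26 its level with Wako was 5.37 times that with ExoQuick (exact 95% interval 1.87 to 12.6), and in MC38 it was 0.113 times (0.0539 to 0.207). miR-146b-5p was alike under both kits in C26 to within its interval, with a ratio of 1.02 (0.612 to 1.61), and lower with Wako in MC38, with a ratio of 0.0556 (0.00141 to 0.310) that rests on 1 read. The summed pair followed, at 1.27 in C26 (0.817 to 1.89) and 0.103 in MC38 (0.0514 to 0.184). miR-155-5p was 7.32 times higher with Wako in C26 (1.83 to 21.6), on 4 reads, and had no reads to compare in MC38.

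In limma 0 of the 3 members were called for the kits, against 21 of 390 miRNAs (5.38%), all of them higher with Wako, while 1 of 3, miR-146b-5p, had an unadjusted p under 0.05, as did 53 of 390 (13.6%). edgeR and DESeq2 called 0 as well. The log2 differences of Wako minus ExoQuick were −0.38 for miR-146a-5p (SE 1.03, adjusted p = 0.966), −2.06 for miR-146b-5p (SE 1.03, adjusted p = 0.350) and 1.40 for miR-155-5p (SE 4.02, adjusted p = 0.966). With quantile normalization miR-146b-5p was called lower with Wako (log2 −3.25, adjusted p = 0.0175).

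**Figure D3:**
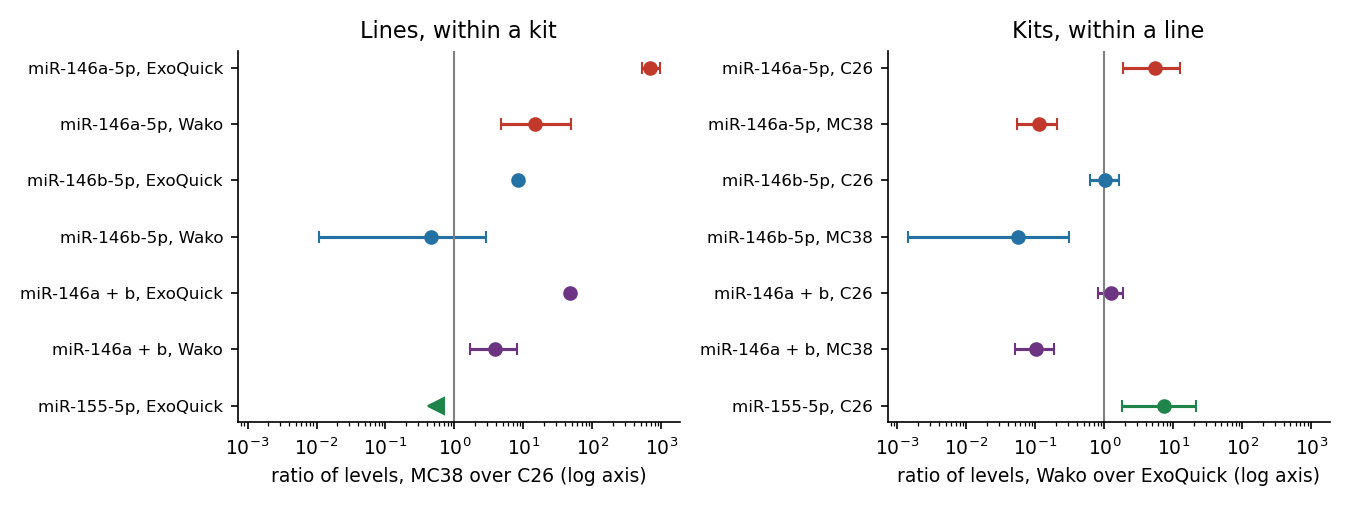
Ratios of levels between the lines within each kit (left) and between the kits within each line (right), on log axes, with exact 95% intervals. The triangle marks the floor of MC38 ExoQuick over the C26 ExoQuick value of miR-155-5p, which had 0 reads in MC38. It leaves out the counting error of C26, so it is not an upper limit of the MC38 to C26 ratio. miR-146a-5p lies above 1 under both kits (693 and 14.5), while its kit ratios fall on opposite sides of 1 (5.37 and 0.113).

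Most miRNAs called between the lines were higher in C26 (11 of 390, 2.82%), and counts over lists are to be read against that share. Of 8 other miRNAs that inflammatory or Toll-like receptor signals induce, all 8 were tested. Among them 2 were called higher in C26, 0 higher in MC38 and 6 were not called. Their median line difference was 3.16 against 1.85 over all 390 in limma. It was 2.24 against 0.34 with edgeR and 1.79 against −0.21 with DESeq2. Only 4 of the 8 had reads in MC38 Wako, so the pseudocount shapes the limma median. The 2 called were miR-221-3p (log2 2.68, SE 0.83, adjusted p = 0.0385) and miR-222-3p (log2 3.64, SE 1.05, adjusted p = 0.0215), neighbours on the X chromosome that repress the cell-cycle inhibitor Cdkn1b. miR-21a-5p, which NF-kappa-B and STAT3 induce in many tumours, had the highest level of the list, at 32249 RPM in C26 and 2601 RPM in MC38 with ExoQuick, and at 21756 and 10344 RPM with Wako. Both of its C26 values lay above both MC38 values, as for 123 of the 390 miRNAs tested (31.5%). It was not called (log2 2.35, adjusted p = 0.115 in limma).

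miR-147-3p, which Toll-like receptor signals induce in mouse macrophages, stood at 681 RPM in C26 and 11.7 RPM in MC38 (4 reads) with ExoQuick and at 416 RPM and 0 reads with Wako, and was not called (adjusted p = 0.315 in limma). miR-132-3p, induced together with miR-146a and miR-155 in human monocytes, stood at 428 and 205 RPM with ExoQuick and at 445 RPM and 0 reads with Wako, C26 first, and was not called (adjusted p = 0.370 in limma). The MC38 Wako floor of 776 RPM lay above the C26 Wako levels of miR-147-3p and miR-132-3p, so 0 reads there cannot show a lower level. For the kits, 0 of the 8 on this list were called, with a median of −0.25 against 0.44 over all 390. The line count ran from 0 to 2 over 19 alternatives and was 0 in 9 of them.

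Of 8 miRNAs reported to repress parts of the NF-kappa-B or Toll-like receptor pathway, 3 were called higher in C26, against 11 of 390 over all (2.82%). Another 5 were not called, and 0 were called higher in MC38. The median line difference of the 8 was 2.98 in limma, 1.45 with edgeR and 1.36 with DESeq2. Over all 390 it was 1.85, 0.34 and −0.21. The parts they repress differ: miR-301a-3p is best known for repressing Nkrf, an inhibitor of NF-kappa-B, and so acts in the opposite direction to miR-146a. The 3 called higher in C26 in limma were miR-199a-5p (log2 4.62, SE 1.02, adjusted p = 0.000779), miR-125b-5p (log2 3.44, SE 0.87, adjusted p = 0.00523) and miR-125a-5p (log2 3.37, SE 0.91, adjusted p = 0.0112). For the kits, the median of the 8 was 3.28 against 0.44 over all 390, and 1.65 against −1.16 with TMM. Of the 8, 5 were called, all higher with Wako, as were all 21 of the 390 called. miR-31-5p was among them (log2 3.06, adjusted p = 0.00731 in limma), as was miR-301a-3p (log2 3.80, adjusted p = 0.0132). So was miR-199a-5p, whose log2 difference of Wako minus ExoQuick was 0.10 in C26 and 7.34 in MC38. miR-146a-5p and miR-146b-5p, with −0.38 and −2.06, were not. Over the 19 alternatives the line count ran from 0 to 4 and was 0 in 8, and the kit count ran from 0 to 5 and was 0 in 9, edgeR and DESeq2 among them.

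**Figure D4:**
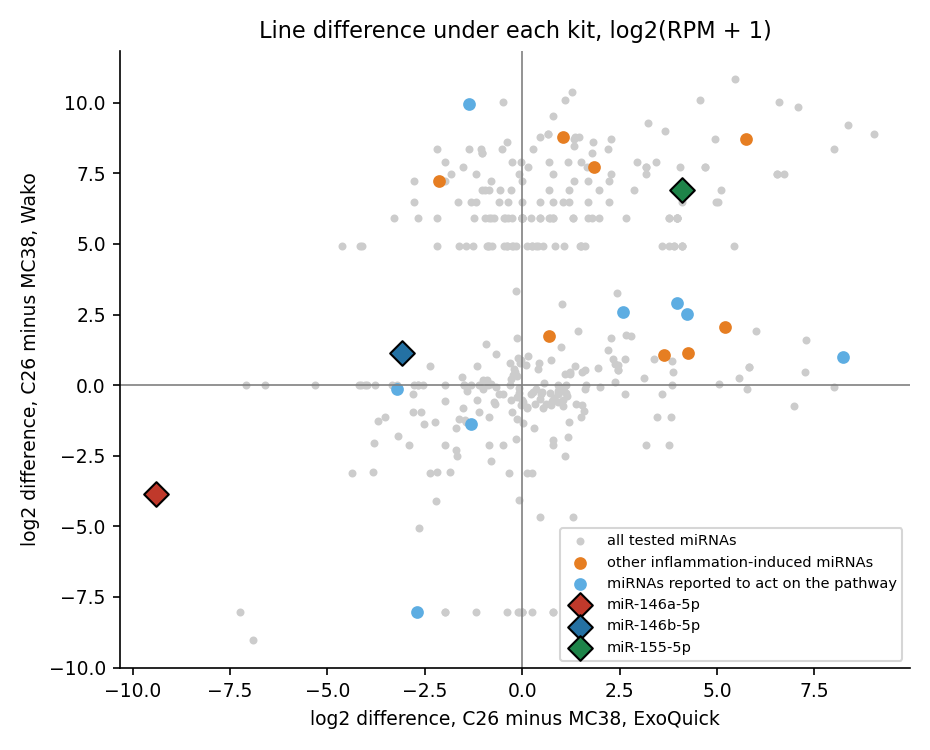
Line difference (C26 minus MC38, log2(RPM + 1)) under ExoQuick (x axis) and Wako (y axis) for the 390 tested miRNAs in grey, the 2 lists of 8 in colour and the 3 members as diamonds. miR-146a-5p stands at −9.39 and −3.85, farthest to the left of all, and miR-146b-5p at −3.07 and 1.12, with its sign turned under Wako; rows of equal height mark miRNAs with few or no reads in 1 Wako library.

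Since miR-155 and miR-146a are also typical of white blood cells, 5 miRNAs of those cells (miR-142a-3p, miR-142a-5p, miR-150-5p, miR-223-3p and miR-342-3p) were set beside them. Their summed level was 5280 RPM in C26 and 408 RPM in MC38 with ExoQuick, and 10418 and 11378 RPM with Wako. Most of the sum in C26 ExoQuick was miR-142a-5p, at 4584 RPM. With ExoQuick, members with few reads went either way. miR-223-3p, a myeloid miRNA, stood at 7.37 RPM in C26 (10 reads) and 20.6 RPM in MC38 (7 reads). miR-150-5p, a lymphocyte miRNA, stood at 11.8 RPM in C26 (16 reads) and had 0 reads in MC38. Neither was called between the lines. Of the 5, 1 was called higher in C26 (miR-142a-5p, log2 3.11, adjusted p = 0.0338 in limma), against 11 of 390 over all (2.82%), and 0 higher in MC38. The line difference of miR-142a-5p changed sign between the kits. It stood at 4584 RPM in C26 and 35.2 RPM in MC38 (12 reads) with ExoQuick. With Wako it stood at 2909 RPM in C26 and 4913 RPM in MC38 (19 reads). For the kits, 3 of the 5 were called higher with Wako, against 21 of 390 (5.38%). Over the 19 alternatives the line count was 0 in 13. The kit count was 0 in 8, TMM, median-ratio scaling and quantile normalization among them. The part of these miRNAs in the results on miR-146a-5p, miR-146b-5p and miR-155-5p was not tested.

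Red cell and serum miRNAs (miR-144-3p, miR-451a, miR-486a-5p, miR-122-5p and miR-16-5p) summed to 2780 RPM in C26 and 1700 RPM in MC38 with ExoQuick and to 3235 and 2586 RPM with Wako, and 0 of 5 were called in either comparison. Single members went either way with ExoQuick: miR-122-5p, the liver miRNA, stood at 413 RPM in C26 and 746 RPM in MC38, and miR-486a-5p at 213 and 38.2 RPM. miR-144-3p had 2 reads in each C26 library and 0 in MC38, where both floors lay above those C26 levels of its kit. Of 8 epithelial and colon miRNAs, 2 were measured. miR-192-5p stood at 55.3 and 38.2 RPM with ExoQuick, C26 first, and had 1 read in C26 Wako and 0 in MC38 Wako, which allows up to 776 RPM there. miR-194-5p stood at 20.6 and 26.4 RPM with ExoQuick, and 4 reads in each Wako library gave 118.7 and 1034 RPM. The other 6, among them the miR-200 family that marks epithelium, were not analysed here, so the colon epithelial label could be checked on these 2 alone.

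The miRNAs most like each member over the 4 libraries were found by the root mean square difference of log2(RPM + 1), centred on each miRNA's own mean, over those whose mean reached 100 RPM (216 compared, and 217 for miR-155-5p). For miR-146a-5p they were miR-211-3p (difference 1.70), miR-378d (1.80) and miR-378a-3p (2.08), all with higher levels in both MC38 libraries. Of these, miR-211-3p had reads in MC38 alone (149.7 RPM with ExoQuick and 259 RPM, 1 read, with Wako), and miR-378a-3p stood at 2498 and 35078 RPM with ExoQuick and at 2790 and 11637 RPM with Wako, C26 first. For miR-146b-5p they were miR-210-3p (0.909), miR-130b-3p (0.941) and miR-130a-3p (1.04), of which miR-130a-3p stood at 178339 and 489612 RPM with ExoQuick and at 62389 and 147918 RPM with Wako, again C26 first. For miR-155-5p they were miR-449a-5p (1.35), miR-615-3p (1.42) and miR-326-3p (1.44), each with 0 reads in MC38 Wako and at most 5 in MC38 ExoQuick. These are descriptions over 4 values.

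**Figure D5:**
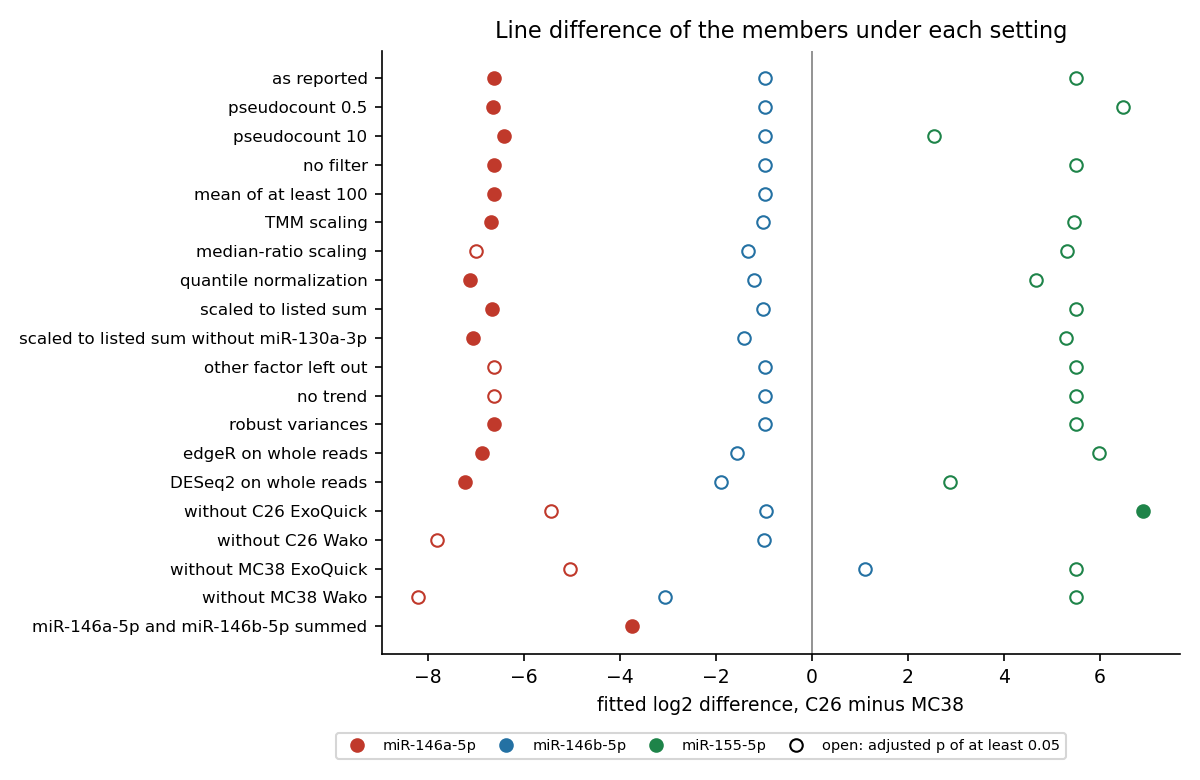
Fitted line difference of each member (C26 minus MC38, log2 scale, x axis) under the reported and alternative settings (rows); filled points have an adjusted p under 0.05. miR-146a-5p stays between −8.20 and −5.05 (the last row, at −3.75, is its sum with miR-146b-5p), miR-146b-5p crosses 0 only without MC38 ExoQuick, and the sign of miR-155-5p is fixed by its 0 reads in MC38.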

How the data were processed

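Small RNA of 4 exosome libraries was measured by Illumina sequencing. The deposited table gives 1 normalized signal value per known mature miRNA and library, and DESeq2 is named, per the submitters' processing notes, with neither role nor version. No aligner, counter, build or miRNA release is given in the sources used here. For every column of that deposited table, 100.0% of the signal values above 0 were whole multiples of 1 step, within 0.00501, and exactly 1 whole-number library total gave them. They were taken as reads scaled to that total (RPM), and whole reads were recovered. Columns sum to 1020209 to 1057545, as some reads are listed under several miRNAs. All pairs of libraries differed beyond sampling noise (lowest chi-square over its degrees of freedom 4.53).

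Line and kit were fitted as additive terms in limma 3.58.1 (R 4.3.3), with a trend of variance on abundance, after taking log2(value + 1) and keeping the 390 miRNAs whose mean reached 10 RPM. P-values are two-sided and adjusted by Benjamini-Hochberg, with a threshold of 0.05. Where a library holds 0 reads, the pseudocount sets the size of a difference on this scale. Ratios within a kit or line carry exact conditional binomial 95% intervals from recovered reads and have no replicate check. edgeR 4.0.16 and DESeq2 1.42.0 on recovered reads were alternatives. The fit was tested on simulated data, where the share of false calls was slightly above the nominal level. Those data held a line effect but no kit effect, and 1 fixed spread for all miRNAs. The test therefore cannot show the error rate where kits differ, or where the line difference changes with the kit, as here. Members, lists and tests were chosen with earlier results of these data known. Named were the members, the listed miRNAs and the 3 miRNAs most like each member.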

Additional observations from a re-analysis of the deposited data

Results flagged for a closer look

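The level of miR-146a-5p with Wako against ExoQuick was higher in C26 (ratio 5.37, 6 against 45 reads) and lower in MC38 (ratio 0.113, 10 against 7829 reads). It was picked out because the 2 lines moved in opposite directions. Both intervals (1.87 to 12.6 and 0.0539 to 0.207) leave out 1, and the difference between the lines was not tested, since each rests on 2 libraries.

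miR-146b-5p was picked out for the same reason on both sides. MC38 against C26 gave a ratio of 8.43 under ExoQuick and 0.459 under Wako, and Wako against ExoQuick gave 1.02 in C26 and 0.0556 in MC38. The Wako ratio of the lines and the C26 ratio of the kits have intervals that hold 1, and both MC38 Wako ratios rest on 1 read. These differences were not tested either. Outlying samples were not looked for, as each group holds 1 library.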

How the results depend on the processing

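The line difference of miR-146a-5p kept its sign in all 19 alternatives. It did not pass with median-ratio scaling (log2 −6.99), or without the kit term or without a trend (−6.62 each), where 0 of the 3 members were called. Without 1 library each, where the kit term could not be kept, it ran from −8.20 to −5.05 and never passed, and the count of members ran from 0 to 1, the 1 being miR-155-5p without C26 ExoQuick. miR-155-5p then ran from 5.50 to 6.90 and miR-146b-5p from −3.06 to 1.11, reversed without MC38 ExoQuick. Kit differences without 1 library came from separate fits with the kit term alone, so differences between the lines enter them. They ran from −5.08 to 4.32 for miR-146a-5p and from −0.65 to 4.85 for miR-155-5p, and thus took both signs. Quantile normalization gave 1 member called for the kits, miR-146b-5p (−3.25). With listed sums without miR-130a-3p as denominator, the ExoQuick ratios became 1148 for miR-146a-5p and 13.97 for miR-146b-5p. The C26 ExoQuick value of miR-155-5p became 1.11 times the MC38 floor. The causes were not tested. miR-155-5p gave no value where the filter removed it (a mean of at least 100, and without C26 Wako), and the 5p to 3p ratio was not run.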
